A study of Homo sapiens with 8 samples.

Results

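The genes described are 9 genes of antigen presentation by MHC class I: the heavy chain genes HLA-B, HLA-C and HLA-E, the light chain gene B2M, the peptide transporter genes TAP1 and TAP2, the tapasin gene TAPBP, and the immunoproteasome subunit genes PSMB8 and PSMB9. They were chosen as a named list and found by Entrez number among the 22653 entries of the deposited tables. All 9 were listed in each of the 8 libraries, and all 9 passed the filter on low counts among the 17503 entries tested. The libraries come from U937, a human monocytic line derived from a histiocytic lymphoma, and every library, controls included, comes from cells in which SLC19A1 had been knocked out. Into these SLC19A1-/- cells a Flag-tagged SLC7A1 or SLC7A2, both cationic amino acid transporters, had been placed under a tetracycline-inducible promoter, which gave the SLC7A1 line and the SLC7A2 line. Each line was sampled untreated or treated for 24 h with doxycycline at 1 µg/mL, and each of these 4 groups has a library numbered 1 and a library numbered 2. The labels do not say whether a line is 1 clone or a pool, or whether libraries 1 and 2 came from separate cultures, so a p-value covers the spread between these libraries and nothing beyond it, and that spread may be technical. No cells without a construct were analysed here, so doxycycline and the induced transporter cannot be told apart.

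MHC class I molecules show peptides from inside the cell to CD8+ T cells. Proteasomes, among them the immunoproteasome with the subunits PSMB8 and PSMB9, cut proteins into peptides, the TAP1-TAP2 transporter carries the peptides into the endoplasmic reticulum, and tapasin holds empty class I molecules at the transporter while they are loaded. A heavy chain reaches the surface only when it is paired with B2M. Interferons, NF-kB and the transactivator NLRC5, which acts at the conserved promoter elements of class I genes, are the known inducers of the pathway. In monocytic cells the pathway is active at rest and rises with interferon gamma.

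HLA-B (chr6:31353875-31357179, minus strand), HLA-C (chr6:31268749-31272092, minus), HLA-E (chr6:30489509-30494194, plus), TAP2 (chr6:32821831-32838739, minus), PSMB8 (chr6:32840717-32844679, minus), TAP1 (chr6:32845209-32853704, minus), PSMB9 (chr6:32854192-32859851, plus) and TAPBP (chr6:33299694-33314078, minus) lie in the MHC region of chromosome 6 in RefSeq GRCh38.p14. B2M lies apart, at chr15:44711517-44718145 on the plus strand. RefSeq promoter windows, from 250 bases before to 50 bases after the start, were matched for 8 of the 9 genes, all but HLA-E. The stretch from base -220 to base -21 before the start is shown for the 3 genes that passed the test in a comparison (HLA-B, HLA-C and TAPBP), for B2M, and for TAP2, which did not follow the heavy chains. Capitals mark TGACGC (the core of the X2 element), ATTGG (the inverted CCAAT element), GAANNGAAA (part of an interferon-stimulated response element) and the NF-kB consensus, each searched on both strands, so that a match on the opposite strand is printed as its complement.
HLA-B, chr6:31357200-31357399, minus strand: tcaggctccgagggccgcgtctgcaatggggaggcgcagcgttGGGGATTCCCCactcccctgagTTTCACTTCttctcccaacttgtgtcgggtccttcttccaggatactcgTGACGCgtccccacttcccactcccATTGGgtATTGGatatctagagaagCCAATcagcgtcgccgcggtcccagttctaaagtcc
HLA-C, chr6:31272113-31272312, minus strand: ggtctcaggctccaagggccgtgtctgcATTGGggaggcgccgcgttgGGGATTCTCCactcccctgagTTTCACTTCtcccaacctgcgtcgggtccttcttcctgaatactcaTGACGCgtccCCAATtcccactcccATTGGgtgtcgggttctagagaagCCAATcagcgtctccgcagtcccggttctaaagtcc
TAPBP, chr6:33314099-33314298, minus strand: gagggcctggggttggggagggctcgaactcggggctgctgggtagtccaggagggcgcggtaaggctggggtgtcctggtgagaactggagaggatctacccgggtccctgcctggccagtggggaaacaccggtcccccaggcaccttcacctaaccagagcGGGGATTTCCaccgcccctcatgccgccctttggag
B2M, chr15:44711297-44711496, plus strand: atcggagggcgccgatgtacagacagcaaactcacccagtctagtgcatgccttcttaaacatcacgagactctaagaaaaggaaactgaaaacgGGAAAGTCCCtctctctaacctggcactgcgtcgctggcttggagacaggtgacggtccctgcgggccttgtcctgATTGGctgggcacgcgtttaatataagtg
TAP2, chr6:32838760-32838959, minus strand: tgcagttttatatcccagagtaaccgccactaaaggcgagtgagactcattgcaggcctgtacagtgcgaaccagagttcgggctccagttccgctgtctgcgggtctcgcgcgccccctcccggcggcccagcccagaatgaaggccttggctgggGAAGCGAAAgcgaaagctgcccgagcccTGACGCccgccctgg

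HLA-B and HLA-C carry the same 4 kinds of match in nearly the same places, with TGACGC at base -106 and base -105, GAANNGAAA on the opposite strand from base -155 and base -151, and the NF-kB consensus upstream of both. In HLA-B the NF-kB matches overlap each other on both strands. B2M has an NF-kB match from base -125 and ATTGG at base -49, and TAPBP has an NF-kB match from base -56. TAP2 has GAANNGAAA at base -63 and TGACGC at base -35. PSMB8 had no match to any motif searched, and TTCNNNGAA, the GAS element, was found in none of the 8. Of 35116 RefSeq promoter windows of the same length, 9.14% hold TGACGC, 34.6% ATTGG, 7.66% GAANNGAAA, 7.66% TTCNNNGAA and 11.3% the NF-kB consensus, and 3.03% hold both TGACGC and ATTGG, as HLA-B and HLA-C do. A match describes these letters and is no evidence of binding.

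Libraries held 17309132 to 18441833 expected counts, which at 3 counts sets a floor of 0.163 to 0.173 CPM (counts scaled to library size), for counting error only. The 12 listed monocytic markers summed to 1664 to 1970.1 CPM, of which ITGB2 had 697.5 to 793.6 and CEBPA 448.1 to 650.8 CPM. SPI1, CD33, CD68 and LYZ were also present, at 62.1 CPM or more. TYROBP, FCGR1A and ITGAM reached at most 19.7, 14.95 and 11.5 CPM, and CSF1R, MPO and CD14 at most 1.80, 1.20 and 0.174 CPM. Both SLC7A2 line libraries numbered 2, without and with doxycycline, stood apart from the other 6 on the first principal component of all genes (59.0% of the variance), at 15.33 and 20.55 against -15.59 to -2.01. In these libraries the SLC7A2_Flag construct read 9.46 and 4670.0 CPM, against 0.570 and 265.0 CPM in the SLC7A2 line libraries numbered 1. Line differences are given with and without them. Among genes that share sequence, reads of HLA-B, HLA-C, HLA-E and other heavy chain genes can be assigned to one another, and gene models of PSMB8, TAP1 and PSMB9 overlap on opposite strands in GENCODE, so values of single heavy chains and of PSMB9 are uncertain to that extent.

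Levels of different genes were compared in TPM, which accounts for transcript length and depth, and they spread over a wide range. B2M was the most abundant, at 969 to 1572 TPM, and ranked 110 of 15340 genes with a symbol by its mean. HLA-B followed at 576 to 1235 TPM (rank 155), HLA-C at 441 to 701 TPM (rank 230) and PSMB8 at 366 to 419 TPM (rank 343). HLA-E, the heavy chain that presents leader peptides of other heavy chains to NK cell receptors, had 75.9 to 123 TPM. PSMB9 had 46.3 to 84.1 TPM, TAPBP 45.1 to 68.4 TPM, TAP2 22.4 to 34.1 TPM and TAP1 19.7 to 27.9 TPM. Among neighbours in this order, the ranges overlapped for B2M and HLA-B, HLA-B and HLA-C, HLA-E and PSMB9, PSMB9 and TAPBP, and TAP2 and TAP1, although B2M was above HLA-B within each library.

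The heavy chains and B2M had lower values in the SLC7A2 line than in the SLC7A1 line, with or without doxycycline. HLA-B, in libraries 1 and 2, had 1462 and 1214 CPM without and 1282 and 1196 CPM with doxycycline in the SLC7A1 line, after TMM scaling. The SLC7A2 line had 904 and 581 CPM of HLA-B untreated, and 869 and 549 CPM with doxycycline. All 4 SLC7A2 line libraries lay under all 4 SLC7A1 line libraries, and those numbered 2 were the lowest. HLA-C, the heavy chain that is a main ligand of KIR receptors of NK cells, had 808, 677, 782 and 697 CPM in the SLC7A1 line, and the SLC7A2 line had 628, 457, 639 and 473 CPM, in the same order. HLA-E had 263, 213, 228 and 206 CPM against 193, 144, 171 and 128 CPM. B2M had 909.6, 902, 889.7 and 934 CPM against 727, 526, 688 and 539.9 CPM. Its group means were 906 ± 5.09 and 912 ± 31.6 CPM in the SLC7A1 line, untreated and treated, against 626 ± 142 and 614 ± 105 CPM (SD, n = 2), so the spread was wider in the SLC7A2 line. Those of HLA-B were 1338 ± 175 and 1239 ± 60.8 CPM against 743 ± 229 and 709 ± 226 CPM (SD, n = 2). For each of these 4 genes the lines did not overlap, all in the direction of lower values in the SLC7A2 line, a pattern found in 5.11% of all entries tested.

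**Figure D1:**
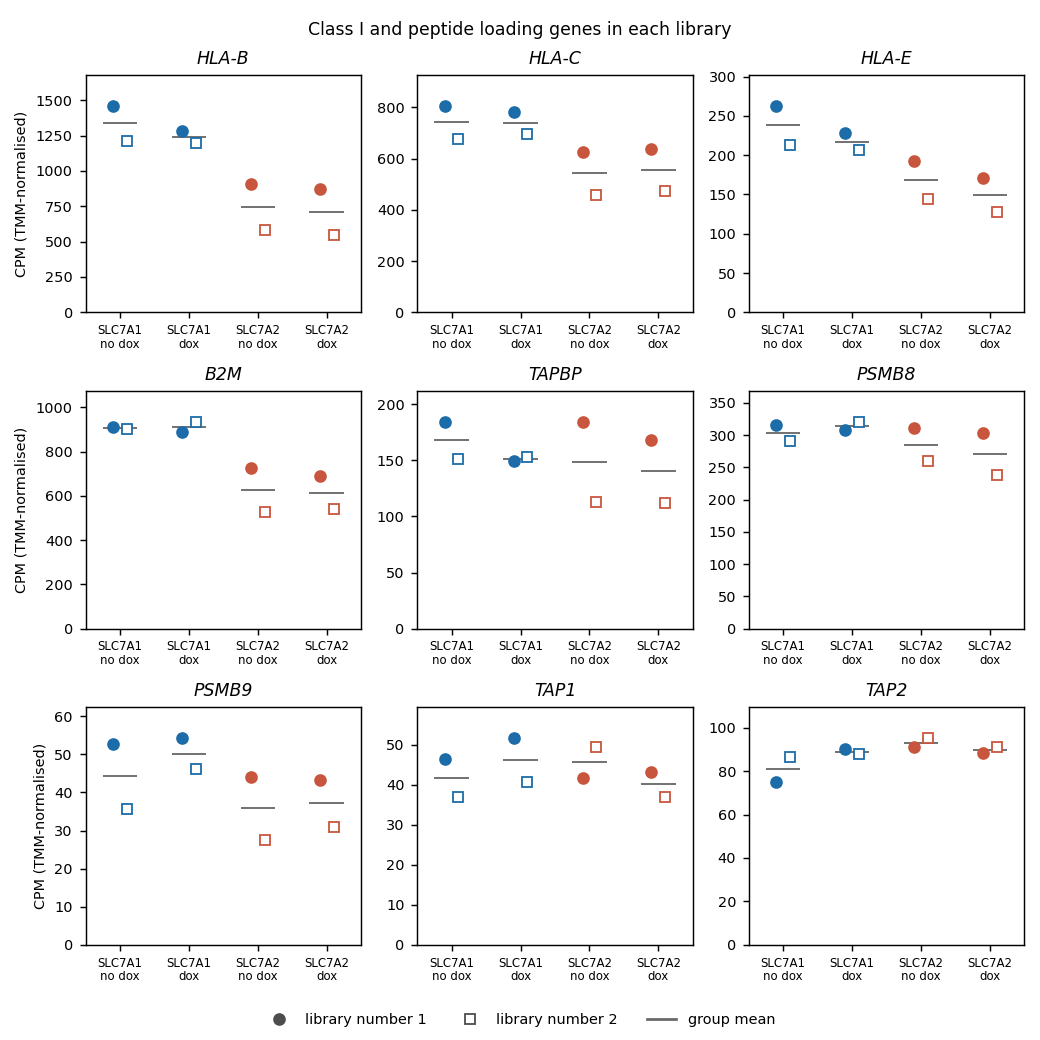
TMM-normalised CPM (y axis, from 0) of each of the 9 genes in the 4 groups, with filled circles for libraries numbered 1, open squares for libraries numbered 2 and lines for group means. HLA-B, HLA-C, HLA-E and B2M show no overlap between the SLC7A1 line (blue) and the SLC7A2 line (red), and the red squares lie lowest, while TAP1 and TAP2 show no such order.

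None of these differences passed the edgeR quasi-likelihood test after Benjamini-Hochberg adjustment over all entries. The log2 fold change of the SLC7A2 line against the SLC7A1 line was -0.83 ± 0.18 (SE) for HLA-B, with an adjusted p of 0.315 (unadjusted 0.00143). It was -0.43 ± 0.14 for HLA-C (adjusted p 0.328), -0.52 ± 0.14 for HLA-E (0.315) and -0.55 ± 0.12 for B2M (0.315). Of the 9 genes 0 were called, as were 0 of all 17503 entries (0%), and 4 of the 9 had an unadjusted p under 0.05, against 2242 entries, or 12.8%. DESeq2 called 3 of the 9, HLA-B (adjusted p 0.00163), HLA-E (0.0238) and B2M (0.00347), against 351 entries (2.01%). Without both SLC7A2 line libraries numbered 2, the values were -0.54 ± 0.10 for HLA-B, -0.23 ± 0.10 for HLA-C, -0.32 ± 0.11 for HLA-E and -0.36 ± 0.07 for B2M (adjusted p 0.675 to 0.742 in edgeR). Since the lines did not overlap for these genes, the SLC7A2 line libraries numbered 1 also lay under all 4 SLC7A1 line libraries. The share of entries with that pattern was not counted.

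The loading and immunoproteasome genes had values that overlapped between the lines. TAPBP had 184, 151, 149.7 and 153 CPM in the SLC7A1 line, and 184, 113, 169 and 112 CPM were found for the SLC7A2 line, which overlapped the other line's range and reached lower. PSMB8 had 316, 291, 309 and 321 CPM against 311, 259.5, 303 and 239 CPM, and PSMB9 had 52.8, 35.7, 54.2 and 46.2 CPM against 44.1, 27.5, 43.4 and 30.8 CPM. The lines overlapped for all 3, and in the SLC7A2 line both libraries numbered 2 were the lowest. TAP1 had 46.5, 37.0, 51.7 and 40.75 CPM against 41.9, 49.5, 43.3 and 37.1 CPM, and TAP2 had 75.1, 86.4, 90.2 and 87.6 CPM against 91.1, 95.1, 88.3 and 91.0 CPM. The edgeR log2 fold changes were -0.37 ± 0.20 for PSMB9 (adjusted p 0.452), -0.15 ± 0.10 for PSMB8 (0.542), -0.14 ± 0.18 for TAPBP (0.746), -0.04 ± 0.14 for TAP1 (0.929) and 0.11 ± 0.09 for TAP2 (0.605). Over the 9 genes the median was -0.37, with 8 lower and 1 higher, beside a median of -0.0037 over all entries tested. It was -0.10 without both SLC7A2 line libraries numbered 2, where TAPBP had a value of 0.15 ± 0.10 (adjusted p 0.831).

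**Figure D2:**
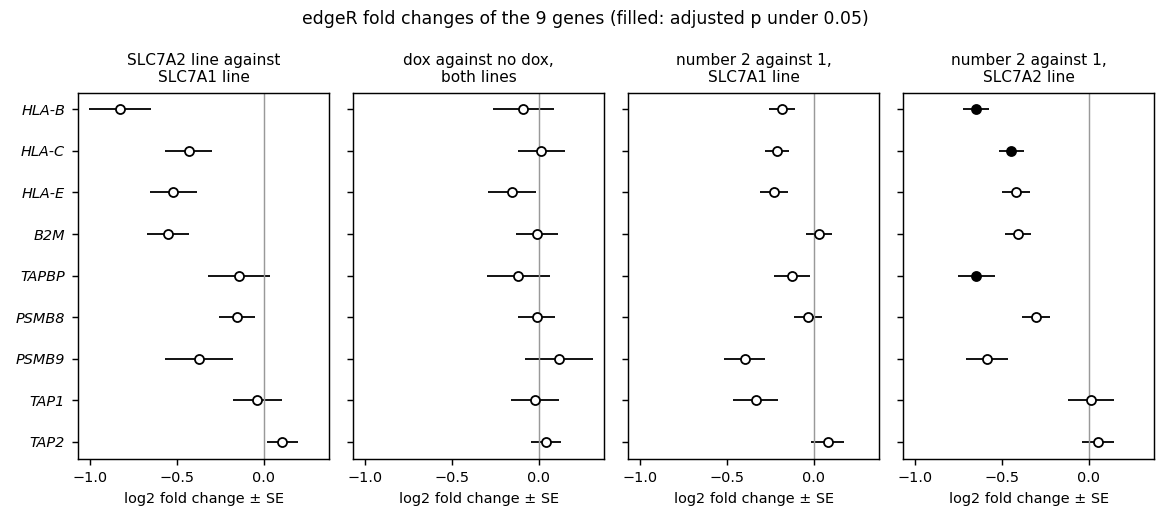
log2 fold changes with SE from edgeR (x axis) for each of the 9 genes in 4 comparisons, with filled points for an adjusted p under 0.05. In the right panel, libraries numbered 2 against 1 in the SLC7A2 line, HLA-B, HLA-C and TAPBP are filled, and TAP1 and TAP2 lie at 0.01 and 0.05.

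The replicate number was compared because the libraries separated by it, so the p-values that follow are for groups chosen with these data in view. In the SLC7A2 line HLA-B, HLA-C and TAPBP fell in libraries numbered 2 against libraries numbered 1. The log2 fold change was -0.65 ± 0.08 (SE) for HLA-B (edgeR adjusted p 0.0413), -0.45 ± 0.07 for HLA-C (0.0478) and -0.65 ± 0.10 for TAPBP (0.049). HLA-E at -0.42 ± 0.08 (adjusted p 0.0597), B2M at -0.41 ± 0.07 (0.0562), PSMB9 at -0.59 ± 0.12 (0.0629) and PSMB8 at -0.30 ± 0.08 (0.0965) did not pass. TAP1 and TAP2 had values of 0.01 ± 0.13 and 0.05 ± 0.09. So 3 of the 9 genes were called, all lower, against 573 entries (3.27%) in either direction and 391 (2.23%) lower. The 9 genes had a median of -0.42, and 7 of them had an unadjusted p under 0.05, against 28.1% of entries. DESeq2 called those 7, against 15.6% of entries, and edgeR on entries with a symbol alone also called 7, against 17.6% of those entries. For these 7 genes both libraries numbered 2 lay under both libraries numbered 1, as did 30.3% of entries.

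These calls are near the threshold and rest on 4 libraries. Leaving out any 1 of the 4 SLC7A2 line libraries ended all 3 calls, with HLA-B at -0.66 to -0.64 and adjusted p values of 0.119 to 0.19, and leaving out any 1 SLC7A1 line library gave 5 calls, against 5.8%, 6.36%, 5.53% and 5.83% of entries. With size factors of DESeq2 in edgeR, only HLA-B passed (adjusted p 0.042), against 2.72% of entries. In this line the first principal component moved with the number, and within each treatment the construct was also higher in number 2. The part of each in these differences was not tested. Fibroblast markers summed to 61.3 CPM in the SLC7A2 line library numbered 2 without doxycycline and to 3.43 to 9.58 CPM in the other 7. HLA-B was at 581 CPM in that library and at 549 CPM in the library numbered 2 with doxycycline, where the sum was 5.63 CPM. Any part of such cells in the number differences was not tested. Markers of T and NK cells summed to 562 and 573 CPM in the libraries numbered 2 of the SLC7A2 line and to 763 to 943 CPM elsewhere, almost all from CD4 and NKG7, with CD3E and CD3G at 0 in all 8. As in any bulk sample, fewer cells of a type and less RNA per cell cannot be told apart.

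In the SLC7A1 line 0 of the 9 genes were called between the numbers by edgeR, against 9 entries (0.0514%), while 3 had an unadjusted p under 0.05, against 19.8% of entries. DESeq2 called 1 of the 9, against 7.93% of entries. PSMB9 had -0.40 ± 0.12 (edgeR adjusted p 0.179), TAP1 -0.33 ± 0.13, HLA-E -0.23 ± 0.08, HLA-C -0.21 ± 0.07, HLA-B -0.18 ± 0.08, TAPBP -0.13 ± 0.10, PSMB8 -0.03 ± 0.08, B2M 0.03 ± 0.07 and TAP2 0.08 ± 0.09 (log2 fold change ± SE). Both libraries numbered 2 lay under both numbered 1 for 5 of the 9 genes, a pattern of 27.8% of entries. Across both lines, 0 of the 9 genes were called, against 1 entry (0.00571%), while 5 had an unadjusted p under 0.05 (19.3% of entries) and DESeq2 called 4 (6.38% of entries), with PSMB9 at -0.49 ± 0.10 (adjusted p 0.14) and HLA-B at -0.42 ± 0.11 (0.155). The median of the 9 was -0.32, and without both SLC7A2 line libraries numbered 2, when the comparison rests on the SLC7A1 line alone, it was -0.18. The difference between the number effects of the lines, a comparison added after the data were seen, was -0.47 ± 0.11 for HLA-B (adjusted p 0.123), -0.44 ± 0.10 for B2M (0.132) and -0.52 ± 0.15 for TAPBP (0.165). It passed in edgeR for 0 of the 9 genes, against 13 entries (0.0743%), while 3 had an unadjusted p under 0.05 (20% of entries) and DESeq2 called 3 (7.63% of entries). In edgeR the number effects of these genes were thus not shown to differ between the lines.

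Doxycycline was not associated with a detectable change in any of the 9 genes. Between libraries of the same line and number, HLA-E was lower with doxycycline in all 4 pairs, with differences of -0.21, -0.045, -0.18 and -0.17 on the log2 scale. HLA-B was lower in all 4, with -0.19, -0.02, -0.06 and -0.08. The share of all entries with the same sign in all 4 pairs was not counted, so this pattern has no background to be read against. The other genes went both ways, and TAP1 had 0.15 and 0.14 in the SLC7A1 pairs, 0.05 in the SLC7A2 pair numbered 1 and -0.41 in the SLC7A2 pair numbered 2. In edgeR the log2 fold changes ran from -0.15 (TAPBP) to 0.18 (PSMB9) in the SLC7A1 line and from -0.18 (TAP1) to 0.05 (PSMB9) in the SLC7A2 line. For HLA-B they were -0.11 ± 0.27 and -0.07 ± 0.27 (SE), and for B2M 0.01 ± 0.18 and -0.03 ± 0.18. Across both lines they ran from -0.15 ± 0.14 for HLA-E to 0.12 ± 0.20 for PSMB9. The adjusted p was 1 for all 9 genes within each line, across both lines and for the difference of the lines' responses. Of the 9 genes 0 were called in these 4 comparisons, as were 0 of all entries (0% in each), with 222, 224, 261 and 222 entries at an unadjusted p under 0.05, none of them among the 9. DESeq2 also called 0 of the 9 in each. For 0 of the 9 genes did the 4 libraries with doxycycline separate from the 4 without, against 0.891% of entries.

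**Figure D3:**
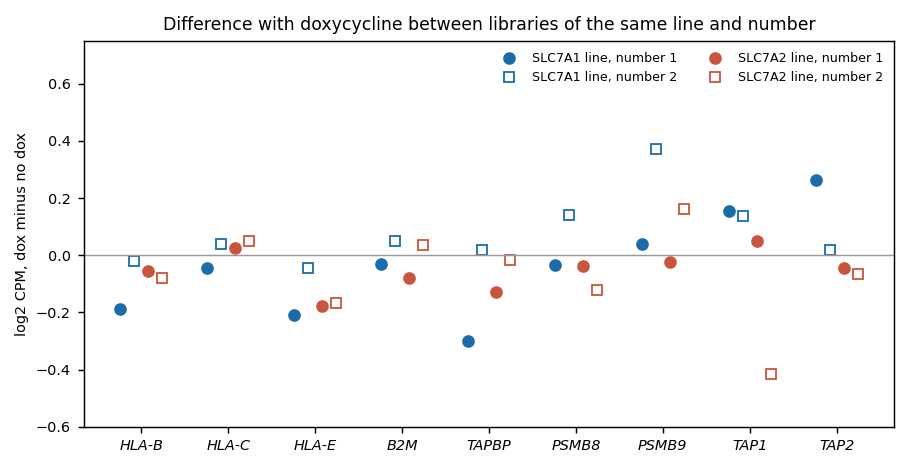
Difference in log2 CPM (y axis) between the library with and the library without doxycycline of the same line and number, for each of the 9 genes, with 1 point per pair. Points of HLA-B and HLA-E lie under 0 in all 4 pairs, and those of TAP1 run from -0.41 to 0.15.

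The proportions of the genes within a library also differed by line. HLA-B made up 61.0%, 60.9%, 59.0% and 60.1% of the TPM of the 3 heavy chains in the SLC7A1 line (order as above). Its share was 55.7%, 52.6%, 54.8% and 50.8% in the SLC7A2 line. HLA-C made up 32.9% to 35.2% against 37.8% to 42.7%, so the lines did not overlap in either share, and these shares come from 1 sum and move against each other. The sum of the 3 heavy chains was 1737 to 2025 TPM in the SLC7A1 line, against 1095 to 1497 TPM in the other. B2M over that sum was 0.705, 0.845, 0.761 and 0.872 in the SLC7A1 line, against 0.834, 0.885, 0.807 and 0.929 in the other line, higher in number 2 than in number 1 within each of the 4 groups. PSMB9 and PSMB8 replace PSMB6 and PSMB5 in the immunoproteasome. PSMB9 made up 20.4%, 14.7%, 21.7% and 16.3% of PSMB9 and PSMB6 TPM in the SLC7A1 line, against 14.6%, 8.72%, 15.8% and 10.8% in the other line. PSMB8 made up 67.6% to 70.9% of PSMB8 and PSMB5 TPM in the SLC7A1 line, against 58.8% to 69.9%. Both proteasome shares were lower in number 2 than in number 1 in each of the 4 groups. These shares are descriptions, with no test.

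**Figure D4:**
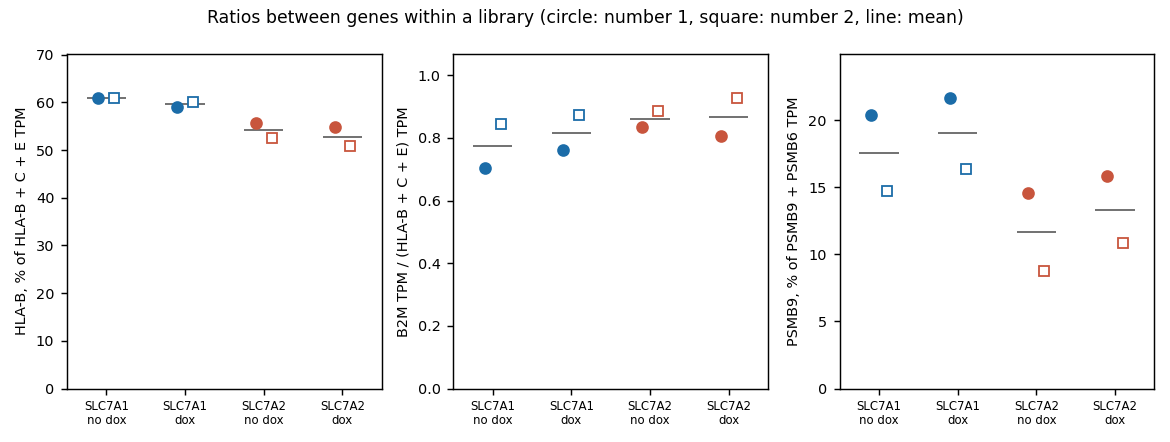
Left, HLA-B as a percentage of HLA-B, HLA-C and HLA-E TPM; middle, B2M TPM over the sum of these 3; right, PSMB9 as a percentage of PSMB9 and PSMB6 TPM, all from 0 with 1 point per library and lines for group means. The HLA-B share is 59.0% to 61.0% in the SLC7A1 line, above the 50.8% to 55.7% of the SLC7A2 line.

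Other genes of the pathway were taken from lists. FCGRT, the class I-like neonatal Fc receptor that pairs with B2M, had 251, 176, 205 and 189 CPM in the SLC7A1 line, against 157, 89.0, 167 and 93.1 CPM in the other. It fell in number 2 of the SLC7A2 line (-0.83 ± 0.12, adjusted p 0.0437), and its line difference was -0.70 ± 0.23 (edgeR adjusted p 0.335), or -0.34 ± 0.16 without both SLC7A2 line libraries numbered 2 (0.749). HLA-F was low, at 0.598 to 1.35 CPM in the SLC7A1 line, and at 0.171 and 0.174 CPM in number 1 and 0 in number 2 of the SLC7A2 line, which is at or under the floor, so that the lines did not overlap (adjusted p 0.315). In the same comparison of numbers, of 4 further immunoproteasome and activator genes 0 were called, with PSMB10, the third immunoproteasome catalytic subunit, at -0.53 ± 0.12 (adjusted p 0.072) and PSME1, an activator subunit, at -0.42 ± 0.11 (0.0874). The constitutive subunits PSMB5, PSMB6 and PSMB7 had values of 0.27 ± 0.09, 0.15 ± 0.09 and 0.07 ± 0.08, none past the test. Of 13 tested genes of loading, editing and trimming 0 were called, 6 higher and 7 lower, and CALR, a chaperone of the loading complex, had -0.30 ± 0.17 (adjusted p 0.313) and GANAB, a glucosidase that trims glycans of new heavy chains, -0.31 ± 0.08 (0.0815). Of 8 tested genes of class I turnover and repression 0 were called, 6 higher and 2 lower, with EZH2, a histone methyltransferase that can silence class I genes, at 0.28 ± 0.08 (0.107).

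Among 25 factors of class I transcription and interferon signalling, 1 was called in number 2 against number 1 of the SLC7A2 line, a share near the 3.27% of all entries. IRF8, a myeloid transcription factor of the interferon regulatory family, had 61.6, 64.4, 43.7 and 51.4 CPM in the SLC7A1 line, against 55.1, 11.2, 50.1 and 13.0 CPM in the other, so that both libraries numbered 2 lay far under all others (-2.12 ± 0.13, adjusted p 0.0361). NLRC5 had 13.8 to 16.8 CPM over all 8 libraries, with -0.08 ± 0.12 and 0.02 ± 0.12 between numbers in the SLC7A1 and the SLC7A2 line. Within that narrow range its libraries with doxycycline all lay above those without, though it was not called. Such a separation, in either direction, was found in 0.891% of entries. IRF1, an interferon-induced activator of class I genes, had 37.7 and 33.6 CPM in number 1 and 17.7 and 18.2 CPM in number 2 of the SLC7A1 line (-0.99 ± 0.11, adjusted p 0.0669), and 17.4 to 21.3 CPM in the SLC7A2 line. Of 25 tested interferon-stimulated genes outside class I, 1 was called in that comparison, again near the 3.27% of all entries, UBE2L6, an enzyme of ISG15 conjugation (-0.69 ± 0.10, adjusted p 0.0437), and the list had 11 higher and 14 lower with a median of -0.05. Of 5 tested MHC class II genes 1 was called, CD74, the invariant chain (-1.47 ± 0.09, adjusted p 0.0361), at 64.3 and 67.5 CPM in number 1 and 22.6 and 25.1 CPM in number 2. Of 5 tested receptors of myeloid cells 1 was called, SIRPA, an inhibitory receptor that binds CD47, which rose (0.62 ± 0.10, adjusted p 0.049). A fit without 1 SLC7A2 line library leaves 1 library in a group, so it cannot decide whether these calls hold. Between the lines, with doxycycline and between the numbers in the SLC7A1 line, 0 genes of any of these lists were called. Between the lines the medians were -0.74 for class II (1 higher, 4 lower), -0.33 for the other class I genes (2 higher, 5 lower), -0.20 for interferon-stimulated genes (6 higher, 19 lower) and 0.20 for the constitutive proteasome subunits (3 higher, 0 lower). Without both SLC7A2 line libraries numbered 2 these medians were -0.64, -0.21, -0.18 and 0.17.

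**Figure D5:**
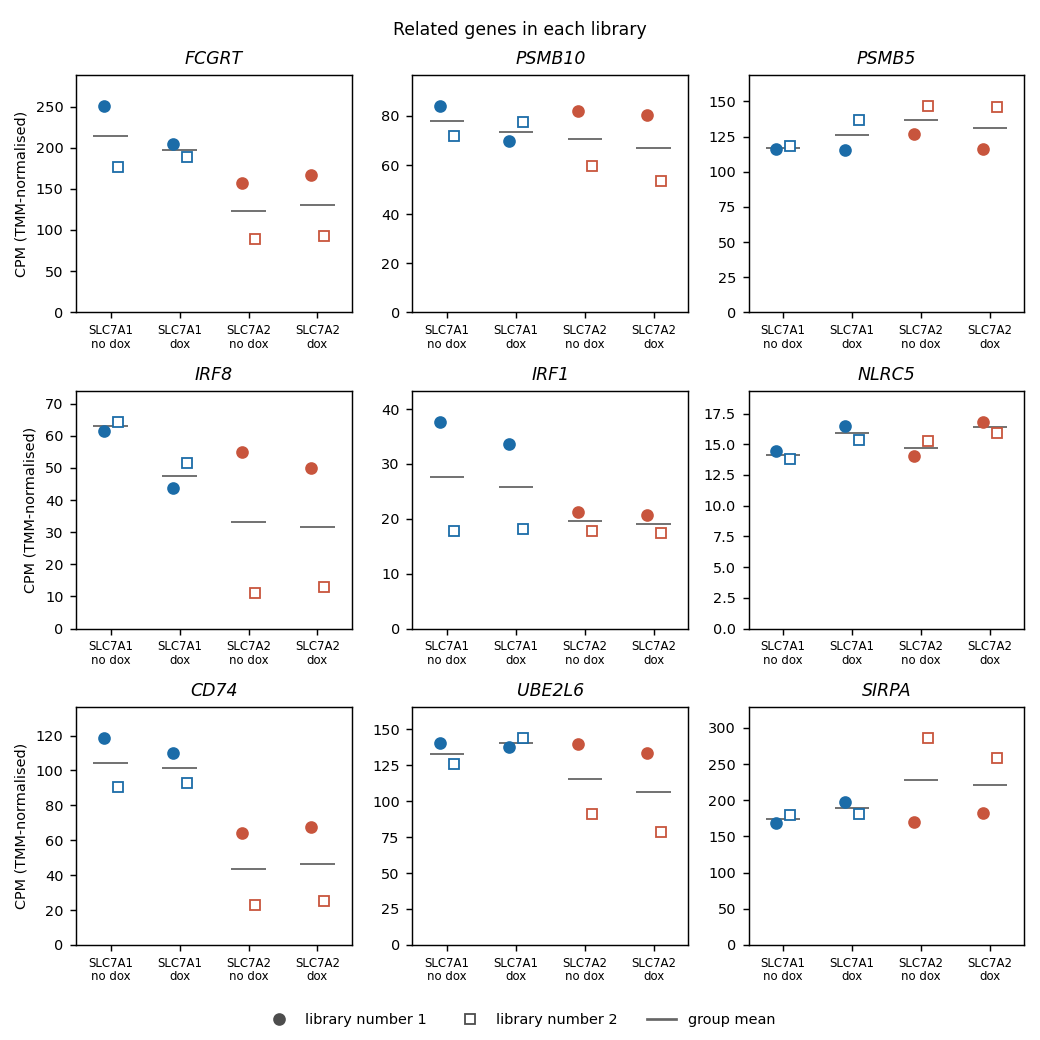
TMM-normalised CPM (y axis, from 0) of 9 related genes in the 4 groups, with filled circles for libraries numbered 1, open squares for numbered 2 and lines for group means. IRF8 and CD74 are lowest in the 2 SLC7A2 line libraries numbered 2, IRF1 is highest in the SLC7A1 line libraries numbered 1, and NLRC5 stays between 13.8 and 16.8 CPM.

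Over the 8 libraries HLA-B moved with HLA-E (Pearson r 0.98), B2M (0.979) and HLA-C (0.976), less with PSMB8 (0.861), PSMB9 (0.839) and TAPBP (0.75), not with TAP1 (0.162), and against TAP2 (-0.693). TAP1 and TAP2, whose products form 1 transporter, had r 0.006. The mean of the 9 genes' centred log2 CPM was most like GRN, the progranulin gene (r 0.998), followed by the ribosomal protein genes RPL32 (0.994), RPLP0 (0.993), RPL15 (0.992) and RPL3 (0.992), out of 4924 other genes with a symbol and a mean log2 CPM of at least 5. GRN had 325, 251, 311 and 266 CPM in the SLC7A1 line, against 248, 164, 236 and 157 CPM in the other, in the order of the libraries used above. All these correlations are over the same 8 libraries and share the lows of both SLC7A2 line libraries numbered 2, so they describe these libraries only.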

How the data were processed

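The data are poly(A) RNA-seq of 8 libraries, 2 in each of 4 groups, with groups and numbers taken from the sample titles. Per the file headers the authors deposited, for each gene, an expected count from RSEM, a TPM and an FPKM. Expected counts deposited by the authors need not be whole and were rounded here. TPM as deposited was used for levels and shares, and FPKM as deposited by the authors was not used in any test. Per the submitters' processing notes the tools were HISAT, Bowtie2 2.3.4.3, RSEM 1.3.1 and DESeq2 1.4.5, and the build hg38; their roles are not stated there. Whether reads were counted by strand is not stated in the labels or headers. A gene not listed in a file was taken as 0. Entrez numbers were matched to RefSeq symbols for 15340 of 15386, and 7264 further entries are assembled loci without a symbol.

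Entries were kept by filterByExpr (minimum count 10, minimum total 15), scaled by TMM and tested with edgeR 4.0.16 in R 4.3.3 (quasi-likelihood F test), with Benjamini-Hochberg adjustment over 17503 entries and a threshold of 0.05. SE values were derived as |log2 fold change| divided by the root of the F statistic. The fits were the 4 group means (dox within a line and the difference), line plus dox (line, and dox across both lines), group plus number, and number and dox within each line. Replicates of a group differed by more than sampling noise (chi-square per gene 20.66 to 45.63). Tests ran on simulated data with known changes beforehand. Alternatives were DESeq2 1.42.0, its size factors, no filter, symbols only, limma 3.58.1 on log2(TPM + 1), each library left out, both SLC7A2 line libraries numbered 2 left out, and a replicate block. The text names the 9 genes, called genes of 9 companion lists or the most abundant ones, genes fixed by role, and the 5 genes most like the 9. The genes and lists were chosen with earlier results of these data known. Some results are not reported here.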

Additional observations from a re-analysis of the deposited data

Results flagged for a closer look

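TAP2 was higher with doxycycline in both SLC7A1 line pairs, by 0.26 and 0.02 on the log2 scale, and lower in both SLC7A2 line pairs, by 0.04 and 0.06, so that the pairs of the lines moved in opposite directions. The difference of the doxycycline effects was -0.19 ± 0.19 (SE), with an edgeR adjusted p of 1.

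IRF8 differed between the lines in its change with the replicate number. The difference of the number effects was -2.27 ± 0.17 (SE, edgeR adjusted p 0.0489), from 0.15 ± 0.12 in the SLC7A1 line and -2.12 ± 0.13 in the SLC7A2 line. It was -2.45 to -2.09 when 1 library was left out. A fit without 1 of the SLC7A2 line libraries leaves 1 library in a group, so it cannot decide whether this call holds.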

How the results depend on the processing

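The direction of the line difference of HLA-B, HLA-C, HLA-E and B2M and of the number difference of HLA-B, HLA-C and TAPBP in the SLC7A2 line was the same under all alternatives run, and no called value changed sign. Values of the 9 genes that passed in no fit changed sign 77 times in the doxycycline comparisons (at most 0.32 on the log2 scale), 5 times between the lines and 16 times between the numbers. Of all entries, calls with doxycycline in the SLC7A1 line were 0 in edgeR, 9 in DESeq2, 2 with no filter, 2 in limma, 2 with the replicate block and 45 in DESeq2 with the block. In the SLC7A2 line they were 10 in DESeq2, 2 in limma, 1 with the replicate block and 27 in DESeq2 with it, for the difference of the effects 20 in DESeq2, 3 in limma and 21 in DESeq2 with the block, and across both lines 1 in DESeq2, 2 with no filter, 1 without both SLC7A2 line libraries numbered 2, 3 with the replicate block and 89 in DESeq2 with it. None of the 9 genes was called for doxycycline in any of these. Between the lines 351 entries (3 of the 9 genes) were called in DESeq2, 3 with no filter, 1 without both libraries, where the median of the 9 was -0.10, 256 (4 of the 9) with the replicate block and 1450 (5 of the 9) in DESeq2 with it. DESeq2 with the block was added after the data were seen. Between the numbers across both lines the calls were 1116 in DESeq2 (4 of the 9), 4 with no filter, 17 with symbols only, 5 in limma and 67 without both libraries, which leaves the SLC7A1 line alone. In the SLC7A1 line they were 1388 in DESeq2 (1 of the 9), 28 with no filter, 535 with symbols only, 136 in limma and 67 without both libraries. In the SLC7A2 line they were 2736 in DESeq2 (7 of the 9), 2036 with symbols only (7 of the 9), 1291 in limma (4 of the 9), 478 with no filter (2 of the 9) and 476 under the size factors of DESeq2 (1 of the 9). For the difference of the number effects they were 1335 in DESeq2 (3 of the 9), 34 with no filter, 602 with symbols only and 241 in limma. The last 2 comparisons could not be fitted without both SLC7A2 line libraries numbered 2. With 1 library left out, called entries ran from 0 to 1 between the lines, 0 to 3 between the numbers, 8 to 69 in the SLC7A1 line, 0 to 1144 in the SLC7A2 line (0 to 5 of the 9 genes), 1 to 84 for the difference, and 0 to 1 with doxycycline in the SLC7A2 line. The median of the 9 then ran from -0.25 to 0.22 for doxycycline in the SLC7A2 line and from -0.26 to 0.21 for the difference of the doxycycline effects, the high ends without the library numbered 1 without doxycycline. Where a group keeps 1 library, it is assumed to vary like the others. Same-numbered libraries deviated together within a line (r 0.703 and 0.771 over 4933 genes) and less across lines (0.038 to 0.445), and the labels do not say what a number stands for, so the replicate block is an alternative only.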

Other observations

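Some genes around class I moved with the replicate number in opposite directions in the 2 lines. These and the next gene were singled out after their values were seen. PDIA3, a thiol chaperone of the loading complex, had 610.4, 734, 535 and 708 CPM in the SLC7A1 line (without doxycycline number 1 and 2, with doxycycline number 1 and 2), against 740.3, 573, 701 and 523 CPM in the other. The difference of the number effects was -0.73 ± 0.11 (SE, edgeR adjusted p 0.078), from 0.34 ± 0.08 and -0.40 ± 0.08. SUSD6, which takes part in the turnover of class I molecules, had 8.34, 5.77, 11.4 and 7.20 CPM in the SLC7A1 line, against 5.93, 9.41, 6.21 and 9.57 CPM in the other, so that number 2 was the lower one in the first line and the higher one in the second. Its difference was 1.24 ± 0.24 (adjusted p 0.101). Neither passed the test.

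LILRB1, an inhibitory receptor that binds class I molecules, had 3.81 to 4.73 CPM in the SLC7A1 line, against 1.64 to 2.19 CPM in the other, with a line difference of -1.18 ± 0.22 (edgeR adjusted p 0.315), or -1.15 ± 0.24 without both SLC7A2 line libraries numbered 2 (0.739), and -0.06 ± 0.29 between the numbers of the SLC7A2 line.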
